A study of Mus musculus with 6 samples.

Results

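Lung cells were read for 9 genes of Wnt signalling, out of 31053 genes counted, in 6 droplet libraries of mouse lung. The genes were listed by name, with earlier results of these data known: the ligands Wnt2, Wnt2b, Wnt4, Wnt5a, Wnt7b and Wnt11, the signal amplifier Rspo3, and the readouts Lef1 and Axin2. In 4 libraries the cells came from Cxcl12DsRed/+ lungs, embryonic at E13.5, E15.5 or E18.5, or postnatal at P8, and were sorted as DsRed+/CD31+/EpCAM-/CD45- cells, with CD31- cells that carried the reporter also collected by the methods. The other 2 libraries were unsorted E18.5 lungs, labelled Cxcl12DsRed/DsRed (null) and Cxcl12DsRed/+ (control). All lungs thus carried the DsRed reporter, which takes the place of 1 or both Cxcl12 copies. For the sorted libraries the lungs of several animals were mixed in a suspension, and mixing is not stated for the whole lungs. Each condition had 1 library, so no comparison here has a replicate or a test. Values of the 4 sorted libraries are given from the youngest stage to the oldest. The 95% intervals given are exact Poisson intervals for levels and exact conditional intervals for ratios, and they cover counting error only. They take UMIs as independent, so they are too narrow where a few cells hold several UMIs each.

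The targeted gene went against the labels of the whole lungs. Cxcl12 in endothelial cells (ECs) of the sorted libraries reached 994, 743, 1231 and 1123 counts per 1000000 UMIs (CPM). It reached 575 CPM (565 to 584) in the library labelled null and 5.33 CPM (4.18 to 6.70) in the library labelled control, the reverse of what the labels state. The names of the deposited files of these libraries also give the opposite genotypes to their labels. These 2 libraries are called by their labels throughout, and any direction between them carries this doubt. Between 7448 and 12726 cells per library were kept. The libraries shared 20 to 54 cell barcodes per pair, and 140 between both whole lungs. Leaving out every barcode found in a second library changed no count of the 9 genes called in the 11 comparisons where this was run, and moved the counts over all genes slightly.

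Wnt ligands are secreted lipid-modified proteins that bind Frizzled receptors with the co-receptors LRP5 and LRP6. In the canonical branch this stabilizes beta-catenin, which enters the nucleus and acts with TCF/LEF factors. In the developing lung, Wnt2 and Wnt2b from the mesenchyme are known for specifying the lung epithelium, Wnt5a for signalling without beta-catenin and for shaping the distal airways, and Wnt7b for its source in the epithelium. Rspo3 is a secreted R-spondin that slows the removal of Frizzled receptors from the cell surface by ZNRF3 and RNF43. Lef1 encodes a nuclear partner of beta-catenin, and Axin2 encodes a scaffold of the complex that degrades beta-catenin and is a widely used target of the pathway.

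Cells were assigned to 4 classes by their own transcripts: endothelial cells by at least 2 unique molecular identifiers (UMIs) of Pecam1 and Cdh5 together, mesenchymal cells by at least 5 of Col1a1 and Col3a1, epithelial cells by at least 1 of Epcam and immune cells by at least 1 of Ptprc. A cell that met several rules was left out. The endothelial class held 173, 8921, 9021 and 8209 cells in the sorted libraries, 2561 in the library labelled null and 1609 in the library labelled control. The mesenchymal class held 11135, 2049, 278, 68, 4413 and 3727 cells in the same order. The epithelial and immune classes passed the minimum of 50 cells in the whole lungs only, with 405 and 566 epithelial and 609 and 529 immune cells in the libraries labelled null and control. The sort and the stage cannot be told apart in the make-up of these classes, since the mesenchymal class was 87.5% of the kept cells at E13.5 and 0.805% at P8. The 6 endothelial markers, which include Pecam1 and Cdh5 of the class rule, summed to 3820 to 9267 CPM in the endothelial class. In the mesenchymal class they summed to 57.8 to 213.7 CPM. All 6 were detected in both classes of each library, so detection alone does not tell these classes apart. The sums are partly set by the rule.

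Levels are summed UMIs of a class in CPM, and since the libraries count 3' tags they are compared within a gene and not between genes. Among the 4 classes of the whole lungs, Wnt2, Wnt5a, Wnt11, Rspo3, Lef1 and Axin2 were highest in mesenchymal cells and Wnt4 and Wnt7b in epithelial cells. In bulk sums like these, fewer expressing cells and less RNA per cell cannot be told apart, and shares of cells are given where they help.

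**Figure D1:**
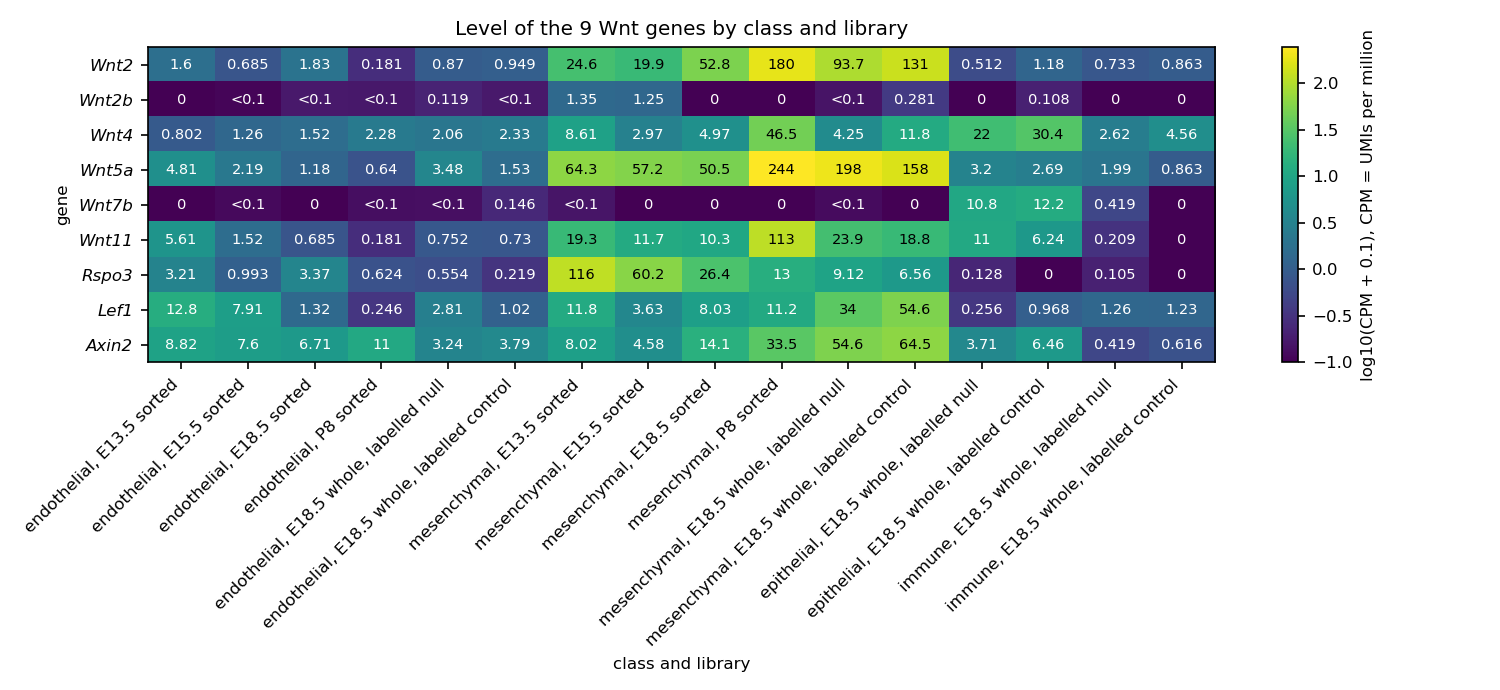
Heat map of the level (CPM, colour on a log scale) of the 9 genes in each class and library of at least 50 cells. In whole lungs Wnt2 and Wnt5a stand at 93.7 to 198.0 CPM in mesenchymal cells and at 0.870 to 3.48 CPM in ECs, while Wnt7b is above 10 CPM in epithelial cells alone.

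Wnt2 (chr6:17988940-18030585, GRCm38, minus strand) was a mesenchymal transcript in each library. Its mesenchymal level in the sorted libraries was 24.6, 19.9, 52.7 and 180.4 CPM (146 to 220 for the last), where E18.5 gave 278 cells and P8 gave 68. It was 93.7 CPM (90.7 to 96.8) in the library labelled null and 131.0 (127 to 135) in the library labelled control. The P8 level was thus the highest of the 6 and its interval met no other. ECs of whole lungs held 0.870 and 0.949 CPM, or 0.929% and 0.724% of the mesenchymal level. The mesenchymal markers Col1a2, Pdgfra, Pdgfrb and Dcn, which were outside the class rule, summed in the same ECs to 0.874% and 0.934% of their mesenchymal level, close to the share of Wnt2. In sorted ECs Wnt2 was at 1.60, 0.685, 1.83 and 0.181 CPM, the first from 2 UMIs. The first 3 were 6.51%, 3.44% and 3.47% of the mesenchymal level, and the same 4 markers there were at 4.21%, 0.338% and 0.155% of theirs. The sum is carried by Col1a2 and Dcn, and Pdgfra, the highest of the 4 by share, was at 5.50%, 2.10% and 0.718%. At P8 Wnt2 was below the 0.142% of the sum.

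Wnt5a (chr14:28504750-28527448, plus strand) was likewise mesenchymal. Its level there was 64.3, 57.2, 50.5 and 243.6 CPM (204 to 289 for the last) in the sorted libraries. Whole lungs held 198.0 CPM (194 to 202) under the null label and 157.7 (153 to 162) under the control label. After each mesenchymal cell was thinned to 2000 UMIs, 29.1% and 25.2% of the mesenchymal cells of whole lungs carried a Wnt5a UMI, against 59.3% and 56.6% without thinning. In immune cells, which should lack Wnt5a, the thinned shares were 0.496% and 0.189%. Median depth was 8309 and 7065 UMIs per mesenchymal cell and 14876 and 14722 per immune cell. Among the 68 mesenchymal cells of P8 the thinned share was 27.9% (17.7 to 40.1), an interval that holds both whole-lung shares. Wnt5a in sorted ECs was at 4.81, 2.19, 1.18 and 0.640 CPM, each lower than the one before. The first rests on 6 UMIs. Those levels were 7.48%, 3.83%, 2.34% and 0.263% of the mesenchymal ones, each above the summed share of the 4 markers, the last below the 0.495% of Pdgfra. All 6 mesenchymal markers in the endothelial class summed to 194, 38.8, 17.6 and 4.79 CPM over the 4 stages, with Dcn alone at 0 at P8, and so had the same order as Wnt5a. Their part in this course was not tested.

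At E18.5 the mesenchymal level of both ligands was lower in the sorted than in the whole-lung libraries. The sorted mesenchymal cells were taken for the Cxcl12 reporter and are few, so stage and sort cannot be told apart for the mesenchyme after E15.5. The E13.5 library and the whole lungs were counted with Cell Ranger 3.1.0, and the other sorted libraries with 3.0.2.

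Wnt11 (chr7:98835112-98855195, plus strand), a ligand mostly known for signalling without beta-catenin, was also highest at P8. In mesenchymal cells it was at 19.3, 11.7, 10.3 and 113.4 CPM in the sorted libraries, and at 23.9 and 18.8 CPM in the libraries labelled null and control. Wnt2b (chr3:104945272-104961921, minus strand) did not pass 1.36 CPM in any class of at least 50 cells. That value was the mesenchymal level at E13.5, from 123 UMIs, followed by 1.25 CPM at E15.5, and no class of the whole lungs passed 0.281 CPM.

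Rspo3 (chr10:29452416-29535867, minus strand) ran the other way. Its mesenchymal level was 115.7 CPM (114 to 118), 60.2 (56.6 to 64.1), 26.4 (20.5 to 33.4) and 13.02 (5.23 to 26.8) in the sorted libraries. Whole lungs at E18.5 held 9.13 and 6.56 CPM under the null and control labels. Each stage was lower than the one before, and among the sorted libraries only the intervals of E18.5 and P8 overlapped.

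Between E13.5 and E15.5, the only pair of stages with over 1000 mesenchymal cells in each library, a gene was called past 2-fold when it reached 10 CPM on 1 side and its log2 ratio, taken after adding 0.5 CPM, was at least 1 in size. The ratios printed are without that addition. Of the 9 genes, 5 reached 10 CPM and 1 was called, Lef1, against 11.2% of all 8700 genes tested in either direction and 4.26% downwards. Lef1 was at 11.8 CPM at E13.5 and 3.63 CPM at E15.5, a log2 ratio of -1.70 (-2.10 to -1.33). Wnt4 had a log2 ratio of -1.53 (-1.98 to -1.12) and Rspo3 of -0.94 (-1.04 to -0.85). Axin2 stood at -0.81, Wnt11 at -0.72, Wnt2 at -0.31 and Wnt5a at -0.17, so these 7 genes were all lower at E15.5. Wnt2b, at -0.12 (-0.86 to 0.56), had an interval across 0, and Wnt7b had 5 UMIs at E13.5 and 0 at E15.5. The make-up of the class differed between both libraries. The gate of Pi16, Col14a1 and Dpt held 8.18% of the class at E13.5 and 25.4% at E15.5, that of Tcf21, Npnt and Limch1 8.27% and 1.42%, and 49.8% and 16.3% of cells met no gate. Mesenchymal markers summed to 4249 and 11400 CPM. The part of these differences in the ratios was not tested. After adding 0.5 CPM, the median log2 ratio over the 9 genes was -0.70, against -0.12 over all genes tested. With a minimum of 5 CPM, a choice made after seeing the data, Wnt4 was called beside Lef1, against 12.3% of all genes. Both were admitted by their E13.5 level alone. With every cell carrying a Mki67 or Top2a UMI left out, Lef1 no longer reached 10 CPM, at a log2 ratio of -1.24 after adding 0.5 CPM. Wnt4 and Rspo3 were called in its place, against 11.3% of all genes. Lef1 also missed the 2-fold limit, at -0.96, when 5 CPM was added.

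**Figure D2:**
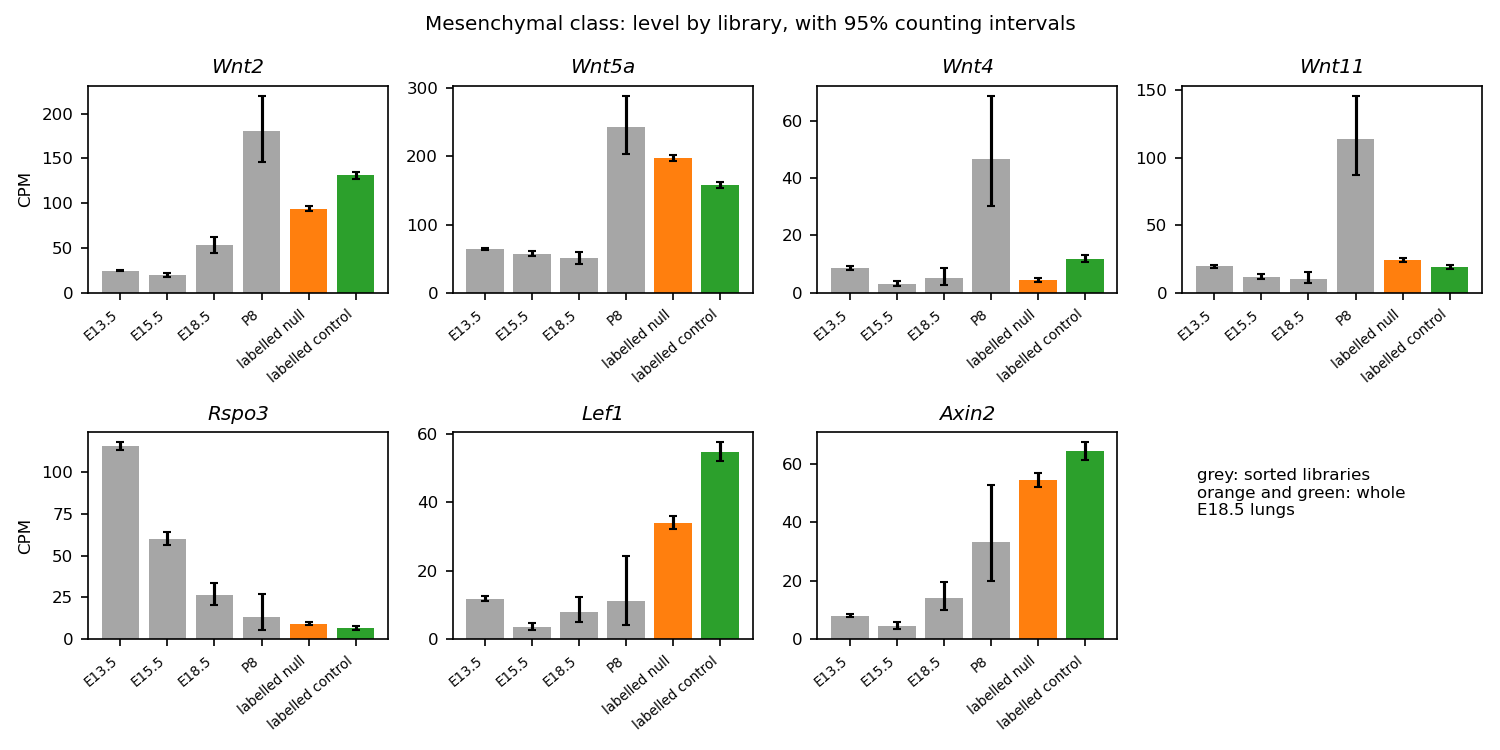
Level (CPM) of 7 genes in the mesenchymal class of each library, as bars with 95% counting intervals (grey sorted, orange labelled null, green labelled control). Rspo3 goes from 115.7 CPM at E13.5 to 13.02 at P8, while the summed levels of Wnt2, Wnt5a, Wnt4 and Wnt11 are highest in the 68 cells of P8.

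The mesenchyme of E13.5 was split by gates on marker genes, and subgroups are called by those genes. Wnt4 (chr4:137277489-137299726, plus strand), a ligand known from kidney and gonad formation, stood out in the 213 cells gated on Wt1, Msln, Upk3b and Lrrn4, which are genes of the mesothelium. It reached 50.5 CPM (40.3 to 62.4) there, and 2.63 to 11.4 CPM in the other gates. Rspo3 reached 191.3 CPM in cells gated on Pi16, Col14a1 and Dpt, 120.6 in the Wt1 gate and 59.5 in the gate of Tcf21, Npnt and Limch1. Wnt5a was highest, at 123.5 CPM, in the gate of Fgf18, Aspn and Tgfbi. Dividing cells, with at least 2 UMIs of Mki67 and Top2a, held less Rspo3 (69.1 CPM) than cells without either (154.7 CPM) and more Lef1 (16.5 against 8.34 CPM).

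In whole lungs the mesenchymal gates separated Wnt2 from Wnt5a and Lef1. Since 82.2% and 64.4% of mesenchymal cells met several gates, a cell was given to the gate in which it stood farthest above the class mean, a choice made after seeing the data. Wnt2 was highest in the Tcf21 gate, which holds genes of alveolar fibroblasts, at 215.0 and 265.2 CPM in the libraries labelled null and control. It was at 81.1 and 218.3 CPM in the Pi16 gate, genes of adventitial fibroblasts, and at 16.4 to 44.9 CPM in the other 3 gates given, those of Fgf18, Myh11 and Notch3. The Wt1 gate is not given for the whole lungs. With shared cells assigned in this way, Wnt2 differed between both libraries more in the Pi16 gate than in the Tcf21 gate, a difference that was not tested.

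Wnt5a had the opposite distribution. It was at 415.5 and 243.3 CPM in the Fgf18 gate, genes of myofibroblasts, and at 369.5 and 220.7 CPM in the gate of Myh11, Actg2 and Cnn1, genes of smooth muscle. The Tcf21, Pi16 and Notch3 gates held 39.1 to 96.1 CPM. The library labelled null was higher in the first pair of gates and lower in these 3. With cells of several gates left out, Wnt5a was still at 377.4 and 238.8 CPM in the Fgf18 gate and at 77.9 and 68.8 CPM in the Tcf21 gate, so the lower value in the Tcf21 gate was not seen there.

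Lef1 (chr3:131110471-131224356, plus strand) followed Wnt5a. It reached 85.9 and 114.9 CPM in the Fgf18 gate, 53.7 and 67.3 in the Myh11 gate, 4.92 and 8.82 in the Tcf21 gate and 2.91 and 12.3 in the Pi16 gate. Axin2 (chr11:108920349-108950783, plus strand) was spread more evenly, at 82.7 and 84.0 CPM in the Fgf18 gate, 71.6 and 66.2 in the Myh11 gate and 45.7 and 60.1 in the Tcf21 gate. In both libraries, with shared cells assigned as above, Lef1 differed more than 10-fold between the Fgf18 and Tcf21 gates, and Axin2 less than 2-fold.

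**Figure D3:**
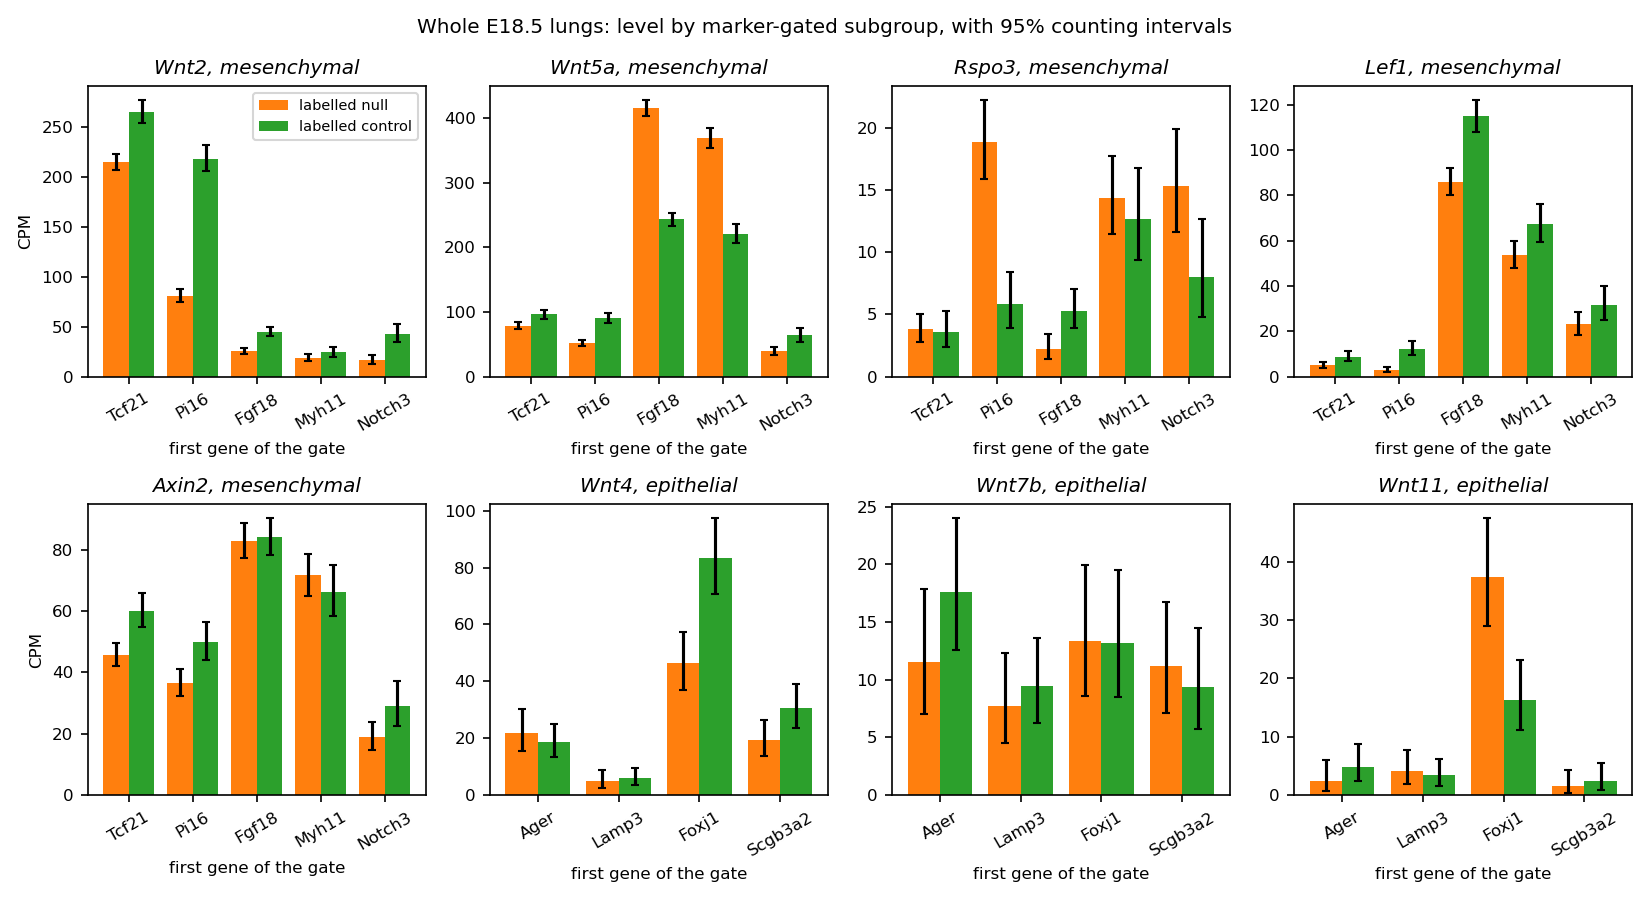
Level (CPM, linear axis from 0) of 5 genes in 5 of the mesenchymal gates and 3 genes in the epithelial gates of the whole lungs, each gate named by its first marker, as bars with 95% counting intervals (orange labelled null, green labelled control). Wnt2 is highest in the Tcf21 gate and Wnt5a and Lef1 are highest in the Fgf18 gate in both libraries.

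The same separation was seen cell by cell, at 2000 UMIs per cell. Of the 553 and 672 mesenchymal cells with a Wnt2 UMI in the libraries labelled null and control, 17.9% and 16.7% also had a Wnt5a UMI, against 30.7% and 27.1% of cells without Wnt2. A Lef1 UMI was found in 2.35% and 4.61% of cells with Wnt2 and in 7.55% and 12.1% of those without. Among cells with Wnt5a, Lef1 was found in 12.8% and 14.5%, against 4.48% and 9.49% of those without. At E13.5 this arrangement was not seen: 12.3% of cells with Wnt2 and 11.8% of the others had Wnt5a, and Lef1 was found in 5.39% of cells with Wnt2 and 2.09% of the others.

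The readouts behaved differently in ECs. Lef1 in the sorted ECs was at 12.8 CPM (7.33 to 20.8), 7.91 (7.33 to 8.52), 1.32 (1.04 to 1.65) and 0.246 (0.138 to 0.406), the first from 173 cells. From E15.5 to E18.5 the log2 ratio was -2.59 (-2.94 to -2.24), or 6.0-fold lower, and from E18.5 to P8 it was -2.42 (-3.33 to -1.61). Over both steps Lef1 was 32.1-fold lower at P8 than at E15.5, from 693 to 15 UMIs. The thinned share of ECs with a Lef1 UMI had the same order, at 2.34%, 1.39%, 0.214% and 0.0374%. In epithelial cells of the whole lungs, which should lack Lef1, it was 0.177% (1 of 564 cells) under the control label and 0 of 404 under the null label, which allows up to 0.743%. The EC share of E18.5 was close to the first of these and that of P8 below it, though these are other libraries and too few epithelial cells were sorted to give a background of their own. Median depth was 17389 and 13265 UMIs per epithelial cell of the libraries labelled null and control, and 5650 to 8442 per sorted EC.

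Axin2 did not follow that course. It was at 8.82 CPM (4.40 to 15.8), 7.60 (7.04 to 8.20), 6.71 (6.06 to 7.41) and 10.98 (10.2 to 11.9). The log2 ratio was -0.18 (-0.36 to 0.00) from E15.5 to E18.5 and 0.71 (0.53 to 0.89) from E18.5 to P8, or 1.64-fold higher. Axin2 was thus highest at P8, where Lef1 was lowest. The summed mesenchymal markers in sorted ECs, given above, had the same order over the stages as Lef1, and their part in the Lef1 course was not tested. Lef1 in these ECs was at 108%, 218%, 16.4% and 2.21% of its mesenchymal level, and the 4 markers outside the rule at 4.21%, 0.338%, 0.155% and 0.142% of theirs.

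**Figure D4:**
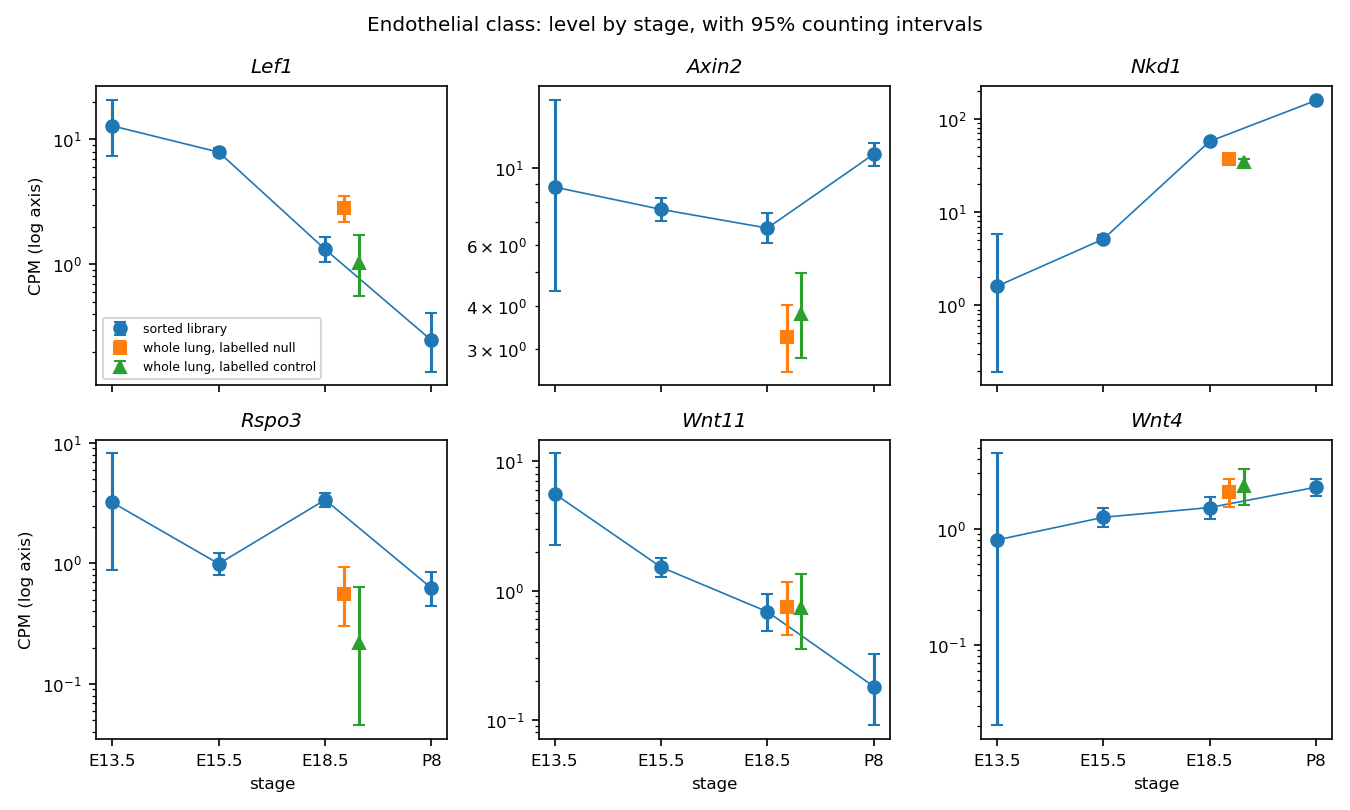
Level (CPM, log axis) of 5 of the genes and of Nkd1 in ECs by stage, with 95% counting intervals (blue line, the 4 sorted libraries; orange squares and green triangles, the whole E18.5 lungs labelled null and control). In the sorted libraries Lef1 is lower at each stage, from 12.8 to 0.246 CPM, while Axin2 stays between 6.71 and 10.98 CPM.

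Few of the 9 genes were abundant enough in ECs to be called. From E13.5 to E15.5, 1 reached 10 CPM and 0 were called, where 6.21% of all genes tested were. From E15.5 to E18.5, 0 reached 10 CPM, with 13.8% of all genes called, and from E18.5 to P8, 1 reached it and 0 were called, with 8.31% of all genes. From E15.5 to P8, 1 reached it and 0 were called, with 20.7% of all genes. With a minimum of 5 CPM, chosen after seeing these levels, Wnt11 was called between E13.5 and E15.5 (8.27% of all genes) and Lef1 between E15.5 and E18.5 (14.5% of all genes, 5.11% downwards) and between E15.5 and P8 (21.6% of all genes). Each was admitted by its earlier and higher stage alone, so nothing is read from these calls. The Wnt11 level of E13.5 came from 7 UMIs, with an interval of 2.26 to 11.6 CPM that spans the minimum. Wnt11 in ECs was at 5.61, 1.52, 0.685 and 0.181 CPM over the 4 stages, again the order of the mesenchymal markers, whose part was not tested. It went from 29.0% of its mesenchymal level at E13.5 to 0.159% at P8, where the 4 markers were at 0.142%. Wnt2b and Wnt7b held at most 4 UMIs in the ECs of any sorted library.

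Rspo3 and Wnt4 in ECs had other orders over the stages. Rspo3 was at 3.21 CPM from 4 UMIs, 0.993 (0.796 to 1.23), 3.37 (2.92 to 3.88) and 0.624 (0.441 to 0.856), so it was 3.4-fold higher at E18.5 than at E15.5 and 5.41-fold lower at P8 than at E18.5. The share of ECs with an Rspo3 UMI did not show the difference between E15.5 and E18.5. It was 0.796% in the earlier and 0.543% in the later library without thinning. At 2000 UMIs per cell it was 0.214% in the later one, inside the interval of the earlier one (0.103% to 0.292%). At P8 it was 0.317%, or 0.0999% thinned. The 87 UMIs of E15.5 and the 197 of E18.5 thus lay in under 1% of ECs, with more UMIs per positive cell at E18.5. Sorted ECs of E18.5 held more Rspo3 than ECs of the whole lungs, where it was at 0.554 CPM under the null and 0.219 CPM (3 UMIs) under the control label. None of the 9 genes reached 10 CPM in ECs of E18.5 on either side of that comparison, in which 2.43% of all genes were called against the null label and 4.46% against the control label. Over the ECs labelled control, Axin2 had a log2 ratio of 0.82 (0.40 to 1.27) and Wnt2 of 0.95 (0.11 to 1.90), while the intervals of Wnt4, Wnt5a, Wnt11, Lef1 and Wnt2b reached 0 and Wnt7b had 0 and 2 UMIs. Over those labelled null, Axin2 was at 1.05, Wnt2 at 1.07, Wnt5a at -1.56 and Lef1 at -1.09, and the intervals of Wnt4, Wnt11, Wnt2b and Wnt7b reached 0. Wnt4 was at 0.802 CPM from 1 UMI at E13.5, then at 1.26, 1.52 and 2.28 CPM, with a log2 ratio of 0.86 (0.49 to 1.24) from E15.5 to P8. Each value was below the 2.62 and 4.56 CPM of immune cells of the whole lungs, which should lack Wnt4. Thinned shares from E15.5 on were 0.202%, 0.327% and 0.512% of ECs, against 0.496% and 1.32% of immune cells. The Wnt4 course in ECs thus lay near or under that background, which comes from other libraries.

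Gates within the sorted ECs showed where the transcripts lay. Here too a cell of several gates was given to the one in which it stood farthest above the class mean. At E15.5 Lef1 was at 5.71 to 11.7 CPM in all 6 gates, the highest being the 476 cells gated on the lymphatic genes Prox1, Mmrn1 and Reln. By E18.5 it was at 3.87 CPM in the gate of Gkn3 and Cytl1, which mark proximal arterial ECs (maEC), at 2.87 in the gate of Car4, Ednrb and Apln (aCap genes), at 1.07 in the gate of Gpihbp1, Aplnr and Kit (gCap genes) and at 0.448 in the gate of Gja4, Gja5 and Alox12 (arterial genes). All ECs of E18.5 together held 77 Lef1 UMIs, so the gate levels of that stage rest on few UMIs, with shared cells assigned. At P8 no gate passed 0.391 CPM.

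Axin2 had another order. In the Gja4 gate it was at 9.52, 10.9 and 13.2 CPM in the libraries from E15.5 on. In the Gkn3 gate it was at 1.95, 1.29 and 3.19 CPM and in the Gpihbp1 gate at 7.16, 4.75 and 9.54 CPM. The 2 gates of arterial genes were thus at the high and the low end for Axin2, with intervals that did not overlap at any of the 3 stages. The Gkn3 values of Axin2 and Lef1 rest on how shared cells were assigned, since without them that gate held 108, 18 and 30 cells in these libraries, against 840, 445 and 209. The 108 cells of E15.5 held 0 Axin2 UMIs (up to 5.81 CPM) and 2 Lef1 UMIs.

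The level of Rspo3 at E18.5 was highest in 2 small gates, at 24.0 CPM (16.3 to 34.1) from 31 UMIs in the 128 cells of the Prox1 gate and 19.7 CPM (13.7 to 27.4) from 35 UMIs in the 171 cells gated on the venous genes Nrg1, Slc6a2 and Car8. These intervals take UMIs as independent, though only 0.543% of all ECs of this library held an Rspo3 UMI. Most of its 197 UMIs lay in larger gates, with 79 in the 1331 cells of the Car4 gate (7.83 CPM) and 37 in the 3070 cells of the Gpihbp1 gate (1.89 CPM). The Gkn3 gate held 11 UMIs (2.84 CPM) and the Gja4 gate 4 (0.199 CPM). With cells of several gates left out, neither of the first pair had 50 cells, and the Car4 gate held 0.585 CPM from 1 UMI, so these 3 values rest on how shared cells were assigned.

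Among the classes of the whole lungs, the epithelial class held the highest levels of Wnt4 and Wnt7b. Among all classes of at least 50 cells, the 68 mesenchymal cells of P8 held the most Wnt4, at 46.5 CPM (30.1 to 68.6). Wnt7b (chr15:85535437-85582473, minus strand) was at 10.8 CPM (8.58 to 13.3) under the null label and 12.2 (10.0 to 14.6) under the control label. Mesenchymal cells of these libraries held 1 and 0 Wnt7b UMIs in all, ECs 1 and 2, and immune cells 4 and 0. Wnt7b ranged from 7.70 to 13.4 CPM across the epithelial gates under the null label, where all intervals overlapped, and from 9.38 to 17.6 CPM under the control label.

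Wnt4 was at 22.0 CPM (18.9 to 25.6) and 30.5 CPM (27.0 to 34.2) in epithelial cells, 4.25 and 11.8 CPM in mesenchymal cells and 2.06 and 2.34 CPM in ECs. Within the epithelium it was highest in the gate of Foxj1, Tppp3, Rsph1 and Ccdc153, genes of ciliated cells, at 46.3 and 83.3 CPM, and lowest in the gate of Lamp3, Slc34a2, Abca3 and Etv5, genes of AT2 cells, at 4.98 and 6.05 CPM. Wnt11 was highest in that gate too, at 37.4 and 16.3 CPM in the Foxj1 gate, and was at 1.45 to 4.85 CPM in the other epithelial gates. Of the 60-base stretches in the last 300 bases of the Wnt4 transcripts, 5.39% also occur in transcripts of other genes. The effect of this on the Wnt4 count was not tested. Thinned shares of epithelial cells with a Wnt4 UMI were 2.97% and 3.55%, against 0.496% and 1.32% in immune cells.

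Across classes of the library labelled control, 6 of the 9 genes reached 10 CPM in mesenchymal cells and none in ECs. All 6 were called lower in ECs, where 31.3% of all genes were called and 16.6% lower, but the minimum admitted them through the class where they were high, so nothing is read from that count. Wnt2 was 138-fold lower in ECs, Wnt5a 103-fold, Lef1 53.5-fold, Wnt11 25.8-fold, Axin2 17.0-fold and Wnt4 5.03-fold. In the library labelled null Wnt2, Wnt5a, Wnt11, Lef1 and Axin2 reached 10 CPM, again in mesenchymal cells alone, and these 5 were called lower in ECs by the same route, with 30.3% of all genes called and 15.7% lower. There Lef1 was 12.1-fold and Wnt5a 56.9-fold lower in ECs. Between epithelial and mesenchymal cells of the library labelled control, 7 genes were called, with 37.7% of all genes, Wnt4 and Wnt7b being higher in epithelial cells and Wnt2, Wnt5a, Lef1, Axin2 and Wnt11 lower, these 5 again admitted by their mesenchymal level and Wnt7b by its epithelial level alone, so nothing is read from the count. The same 7 genes were called in the library labelled null (38.8% of all genes). Immune cells were at or under 4.56 CPM for each of the 9 genes.

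The libraries labelled null and control were then compared within each class. In mesenchymal cells 6 of the 9 genes reached 10 CPM and 1 was called, Wnt4, against 1.06% of all 8608 genes and 0.325% downwards. Wnt4 was admitted by its level under the control label alone, so nothing is read from this count. With the authors' second matrix, in which SoupX had adjusted the counts for free RNA, the share of all genes called was larger in each class, at 4.68% in mesenchymal cells, 6.83% in ECs, 9.98% in epithelial and 10.6% in immune cells, and Lef1 was called beside Wnt4 in mesenchymal cells. In unadjusted values Wnt4 was at 4.25 CPM (3.63 to 4.94) under the null label and 11.8 (10.5 to 13.1) under the control label, a log2 ratio of -1.47 (-1.74 to -1.20). Immune cells, which should lack Wnt4, held 2.62 CPM (1.69 to 3.86) and 4.56 CPM (3.21 to 6.29). Thinned shares of mesenchymal cells with a Wnt4 UMI were 0.681% (0.460 to 0.971) and 1.99% (1.57 to 2.49). Those of immune cells were 0.496% (0.102 to 1.44) and 1.32% (0.534 to 2.71), so the intervals overlap in both libraries. The mesenchymal level under the null label thus stood near this background. The call was lost with doubled class limits, where Wnt4 stayed at -1.23 but under 10 CPM, and with 5 CPM added, where it was at -0.86. The Wnt4 level was lower under the null label in each of the 5 mesenchymal gates given for the whole lungs. It was at 10.6 and 24.0 CPM in the Fgf18 gate and at 1.29 to 4.11 against 3.21 to 13.4 CPM in the others. The Wt1 gate, where Wnt4 stood out at E13.5, is not among these 5. Wnt4 was also lower under the null label in epithelial cells, by a log2 ratio of -0.47 (-0.75 to -0.19), and in ECs it was at -0.18 with an interval across 0.

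Among genes with at least 10 UMIs in both libraries, the other mesenchymal differences were smaller. Lef1 had a log2 ratio of -0.69 (-0.79 to -0.58), Wnt2 of -0.48 (-0.55 to -0.42), Axin2 of -0.24 (-0.33 to -0.15), Wnt5a of 0.33 (0.28 to 0.38), Wnt11 of 0.34 (0.19 to 0.50) and Rspo3 of 0.48 (0.22 to 0.74). Lef1, Axin2, Wnt2 and Wnt4 were thus lower and Wnt5a, Wnt11 and Rspo3 higher in the library labelled null. Wnt2b was lower too, at -2.48 (-5.75 to -0.16) from 2 and 8 UMIs, and Wnt7b had 1 and 0 UMIs. With 1 library on each side, a difference between lungs of the same genotype would look alike.

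In epithelial cells 3 genes reached 10 CPM and 0 were called (0.516% of all genes). Wnt11 had a log2 ratio of 0.82 (0.32 to 1.33) and Axin2 of -0.80 (-1.49 to -0.13), beside the -0.47 of Wnt4. Wnt7b, at -0.18 (-0.60 to 0.24), and Wnt5a, at 0.25 (-0.61 to 1.11), had intervals across 0, as had Wnt2 (4 and 11 UMIs) and Lef1 (2 and 9 UMIs), and Wnt2b and Rspo3 had 1 UMI each. In ECs 0 of the 9 genes reached 10 CPM, where 0.566% of all genes were called, and in immune cells 0 reached it, where 1.53% were. There Wnt4, at 2.62 and 4.56 CPM, had a log2 ratio of -0.80 (-1.59 to -0.03), and Wnt5a, Wnt2, Lef1 and Axin2 had intervals across 0. Wnt7b, Wnt11 and Rspo3 had 4, 2 and 1 UMIs under the null label and 0 under the control label, and Wnt2b had 0 in both.

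Below that minimum, Lef1 in ECs was at 2.81 CPM (2.19 to 3.54) under the null and 1.02 CPM (0.559 to 1.71) under the control label, a log2 ratio of 1.46 (0.62 to 2.40) and the opposite direction to the mesenchyme. Wnt5a in ECs was at 3.48 and 1.53 CPM, a log2 ratio of 1.18 (0.48 to 1.95). Axin2 in ECs was at 3.24 and 3.80 CPM, a log2 ratio of -0.23 (-0.75 to 0.30). Wnt2, Wnt2b, Wnt7b, Wnt11 and Rspo3 in ECs had at most 22 UMIs in either library and intervals across 0. Mesenchymal markers in the endothelial class summed to 56.9 and 38.2 CPM, higher under the null label like Lef1 and Wnt5a. As a share of the mesenchymal level, the 4 markers outside the class rule were at 0.874% and 0.934%. On that scale Lef1 was at 8.26% and 1.87% and Wnt5a at 1.76% and 0.972%. The part of the markers in these results was not tested. Epithelial cells, which should lack Lef1, held 0.256 CPM (0.0310 to 0.926) under the null label, below the EC interval, and 0.968 CPM (0.443 to 1.84) under the control label, close to the EC level. Shares of ECs with a Lef1 UMI were 2.34% and 0.808%, or 0.433% and 0.187% thinned, against 0.494% and 1.06% of epithelial cells without thinning. The thinned epithelial shares were 0 of 404, which allows up to 0.743%, and 0.177%.

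**Figure D5:**
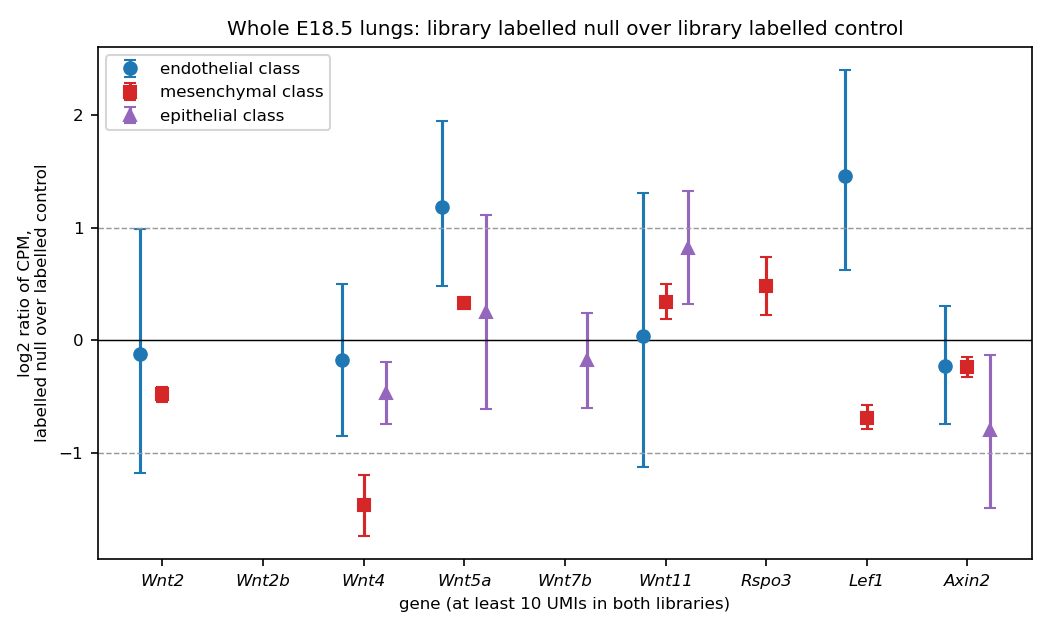
Log2 ratio of the library labelled null over that labelled control in each of 3 classes for the genes with at least 10 UMIs in both libraries, with 95% counting intervals, a line at 0 and dashed lines at 1 and -1. Mesenchymal Wnt4 lies at -1.47, and Lef1 lies above 0 in ECs and below 0 in mesenchymal cells.

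A list of 60 other Wnt pathway genes was read beside the 9. In sorted ECs 24 of them reached 10 CPM between E15.5 and E18.5, of which 2 were called higher and 1 lower, where 13.8% of all genes were called. The median log2 ratio of the list, after adding 0.5 CPM, was 0.40 against 0.18 over all genes tested. Nkd1, which encodes a feedback inhibitor that binds Dishevelled, was at 1.60 (2 UMIs), 5.14, 57.3 and 157.4 CPM. Nkd1 was thus 11.2-fold higher at E18.5 than at E15.5 and a further 2.75-fold higher at P8, the opposite order to Lef1. Dvl1, a Dishevelled, was at 9.22 CPM at E15.5 and 20.7 at E18.5, and Myc at 20.0 and 6.78. Nkd1, Dvl1 and Myc were each admitted by the stage where they were higher, so nothing is read from these calls. Between E15.5 and P8 Nkd1 was admitted in the same way. From E18.5 to P8 Nkd1 was the only one of 22 called (8.31% of all genes). From E15.5 to P8, 4 of 23 were called (20.7% of all genes), Nkd1, Fzd4 and Ccnd1 higher and Myc lower. From E13.5 to E15.5, 25 reached 10 CPM (6.21% of all genes called) and Bambi (31.3 to 101.9 CPM) and Ccnd1 (56.9 to 156.5 CPM) were called higher, and the receptors Fzd9 and Fzd2 lower. Between sorted E18.5 ECs and those labelled control, Sox17 was called higher and Tcf7l2 lower among 22 (4.46% of all genes), and against those labelled null 0 of 22 were called (2.43%).

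In mesenchymal cells 31 of the 60 reached 10 CPM between E13.5 and E15.5, with 4 called higher and 3 lower, where 11.2% of all genes were called. The median of the list was 0.02 against -0.12 over all genes tested. The R-spondins Rspo2, from 26.4 to 4.94 CPM, and Rspo1, from 34.2 to 7.73 CPM, were among the lower ones with the target gene Tnfrsf19 (11.99 to 3.27 CPM), and Rspo3 itself was 1.92-fold lower. Rspo2, Rspo1 and Tnfrsf19 were admitted by their E13.5 level alone, so nothing is read from their calls. Bambi, Fzd4 and Fzd1 were among the higher ones. Between the libraries labelled null and control, none was called among 21 genes in ECs, 34 in mesenchymal, 27 in epithelial and 16 in immune cells, where 0.566%, 1.06%, 0.516% and 1.53% of all genes were. In the library labelled control ECs exceeded mesenchymal cells in 6 of 36, led by Sox17 (399.9 against 1.58 CPM), Fzd6 and Ccnd1. They were lower in 19, led by Rspo1 (0.0730 against 40.2 CPM), Notum and Tnfrsf19, where 31.3% of all genes were called and 16.6% lower. The minimum admitted genes such as Rspo1 through the class where they were high. Nothing is therefore read from the counts and medians of the list between classes, here and below. The median of the list was -1.07 against 0.01 over all genes. Epithelial cells exceeded mesenchymal cells in 6 of 39, led by Rnf43 (18.9 against 0.105 CPM), Fzd6 and the receptor Fzd5, and were lower in 19, led by Adgra2, Lgr6 and Notum, where 37.7% of all genes were called and the medians were -0.79 and -0.30. In the library labelled null, 6 of 36 were higher and 16 lower in ECs (30.3% of all genes called, 15.7% lower). They were led by Sox17, Fzd6 and Ccnd1 and by Fzd2, Lgr6 and Tnfrsf19, each named from the largest ratio after adding 0.5 CPM. Epithelial cells there were higher in 6 of 38, led by Rnf43, Fzd6 and Ccnd1, and lower in 19, led by Adgra2, Notum and Lgr6 (38.8% of all genes).

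The genes with the most similar profile to each member were sought over log2(CPM + 1) in the 16 profiles of at least 50 cells, among 10006 genes. These profiles share libraries and classes, so the coefficients are a description. Wnt2 was most like Robo2 (Pearson r = 0.990), Hoxb6 and Bmper, and Wnt5a most like Olfml1 (0.983), Gata5 and Nexn. Wnt7b was most like Slc26a9 (0.999), Ap1m2 and Shh, the last an epithelial ligand of the lung. Lef1 was most like Mmp2 (0.915), Nrxn3 and Robo1, Axin2 like N6amt1 (0.963), Fam210b and Ptch1, and Rspo3 like Flnc (0.976), Inhba and Twist1. Wnt11 was most like A230057D06Rik (0.980), Tmem41b and Serpine2, Wnt4 like Hs2st1 (0.943), Dusp14 and Grpel2, and Wnt2b like Slc26a7 (0.926), Crabp2 and Foxd1. Among the members themselves, Wnt2 and Wnt5a had r = 0.98 and Lef1 and Axin2 0.76.

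The promoters of Lef1 and Axin2 are shown since both are read as pathway output and their levels in ECs parted, and that of Wnt11 since it holds a match. The 7-letter TCF/LEF motif was searched on both strands, as CTTTGAT or with its last letters changed, as CTTTGTT, or as CTTTGAA with the ending changed again, or as CTTTGTA with the final change, in the RefSeq windows of GRCm38.p6 from 250 bases before to 50 bases after a start. One of them was found in 5544 of 32851 windows (16.9%). Of the 9 genes, 6 had a window there, and Wnt5a, Wnt7b and Rspo3 had none. The 250 bases before each start are printed 5' to 3' with the match in capitals. Of the 4 Lef1 windows, 1 holds a match, at position -147 from a start inside the gene, and of the 2 Wnt11 windows, 1 holds a match, at position -51. The single Axin2 window and the other Lef1 and Wnt11 windows hold none. The windows printed are thus the ones with a match, beside that of Axin2.
Lef1, inner start, chr3:131156044-131156293, plus strand: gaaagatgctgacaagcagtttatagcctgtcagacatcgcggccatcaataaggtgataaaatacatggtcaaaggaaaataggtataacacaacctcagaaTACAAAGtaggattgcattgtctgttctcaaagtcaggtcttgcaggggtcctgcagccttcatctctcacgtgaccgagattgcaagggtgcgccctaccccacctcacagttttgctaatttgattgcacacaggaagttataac
Wnt11, chr7:98834862-98835111, plus strand: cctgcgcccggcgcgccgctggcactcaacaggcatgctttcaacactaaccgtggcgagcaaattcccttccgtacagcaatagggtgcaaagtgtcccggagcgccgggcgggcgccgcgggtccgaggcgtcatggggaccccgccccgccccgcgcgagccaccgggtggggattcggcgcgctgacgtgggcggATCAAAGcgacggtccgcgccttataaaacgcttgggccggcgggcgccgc
Axin2, chr11:108920099-108920348, plus strand: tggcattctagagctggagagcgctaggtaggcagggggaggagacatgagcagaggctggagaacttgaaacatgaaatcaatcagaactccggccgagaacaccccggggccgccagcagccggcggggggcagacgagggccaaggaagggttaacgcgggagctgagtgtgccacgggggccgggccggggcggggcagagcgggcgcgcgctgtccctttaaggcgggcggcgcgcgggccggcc
The first Lef1 start, 250 bases before which run over chr3:131110047-131110296, and the windows of Wnt2, Wnt2b and Wnt4 held none of these letters either. A match is a run of letters and was not tested as a binding site.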

How the data were processed

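Mouse lung cells were measured in 6 libraries, 1 for each condition, and grouped by the labels. The authors ran Cell Ranger (version 3.1 in the submitters' notes, 3.0.2 or 3.1.0 in the matrix headers) on mm10 and Seurat 3.2.2, and deposited raw UMI counts per gene and cell. A second deposited matrix of each whole lung holds expected counts that the authors adjusted with SoupX for free RNA. These set the cell limits of the whole lungs and served as an alternative. Library totals were 63746333 to 117522172 UMIs, and the counting intervals printed rest on the totals of the classes. Cells were kept at 700 genes or more and a mitochondrial share of 0.5% to 10%. No doublet caller was run, and cells meeting several class rules (50 to 759 per library) were left out. UMIs were summed by class and divided by the class total (CPM). With 1 library per condition no test was run. Intervals are exact at 95%, Clopper-Pearson for shares, with an upper limit of 3 counts where none was seen.

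By rule, the 9 members are named in each comparison (class comparisons give those called), with up to 3 other pathway genes past 2-fold of the largest ratio in each direction and the 3 genes most like each member. Members and lists were chosen with earlier results of these data known. Alternatives were another pseudocount, minimum level, class limit, cell filter, averaging, depth, cycling cells and SoupX-adjusted values. Those with 5 CPM, with shared barcodes left out and with shared gate cells assigned, and 4 comparisons (P8 over E15.5, sorted E18.5 over labelled null and classes in the library labelled null), were added after seeing the data. Gene places are from GENCODE M21. Python 3.11.15, numpy 2.4.6, scipy 1.17.1, pandas 2.3.3 and matplotlib 3.10.9 were used, and the code was tested on simulated data.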

Additional observations from a re-analysis of the deposited data

Results flagged for a closer look

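Lef1 moved in opposite directions in 2 classes of the same pair of libraries. On the scale with 0.5 CPM added, the log2 ratio of the library labelled null over that labelled control was 1.12 in ECs and -0.68 in mesenchymal cells. In epithelial cells, which should lack Lef1, it was at 0.256 and 0.968 CPM, against 2.81 and 1.02 CPM in ECs. Thinned shares with a Lef1 UMI were 0.433% and 0.187% of ECs. Those of epithelial cells were 0 of 404, which allows up to 0.743%, and 0.177%, so the EC shares do not clear this background. The difference between the classes was not tested, and the labels of both libraries go against Cxcl12.

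Small classes of the sorted libraries, which the comparisons left out, held members above the limit of a count of 0. In the epithelial class Wnt7b was at 129 CPM at E13.5 (20 cells), 47.6 at E15.5 (24 cells), 12.1 at E18.5 (27 cells) and 26.9 at P8 (4 cells). Wnt4 in the same cells was at 43.1, 12.4, 19.7 and 114 CPM. Wnt5a was at 28.7 CPM in those of E13.5 and Wnt11 at 12.4 CPM in those of E15.5. In the immune class Lef1 was at 64.8 CPM at E18.5 (11 cells) and 135 CPM at P8 (13 cells).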

How the results depend on the processing

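No paired analysis was possible because each condition had 1 library. Of 139 alternative counts of members past 2-fold, 113 stayed within 1.5 times the main count and 26 moved, and no ratio of a gene called in its comparison changed direction. The lower Wnt5a level under the null label in the Tcf21 gate did, at 77.9 against 68.8 CPM without cells of several gates. Of the other values, 71 of 194 log2 ratios, 74 of 144 class levels and 39 of 189 gate levels left their counting interval. The main counts were 0 in ECs for E15.5 over E13.5, E18.5 over E15.5, P8 over E18.5, labelled null over control and sorted E18.5 over labelled control. They were 1 in mesenchymal cells for E15.5 over E13.5 and for null over control, 0 for null over control in epithelial cells, and 7 for epithelial over mesenchymal cells of the library labelled control. In what follows the share of all genes called stands in brackets. With no minimum level the EC counts were 2, 2, 3, 1 and 1 in that order (12.5%, 9.89%, 8.02%, 1.24% and 5.11%). In mesenchymal cells E15.5 over E13.5 then gave 2 (9.88%). With a minimum of 5 CPM the first 2 EC counts were 1 (8.27% and 14.5%) and the mesenchymal one 2 (12.3%). With a minimum of 50 CPM both mesenchymal counts were 0 (11.5% and 0.816%) and the epithelial over mesenchymal count was 4 (39.5%). A pseudocount of 5 CPM left 0 in both mesenchymal comparisons (7.69% and 0.616%). For E15.5 over E13.5, keeping cells of several classes gave 2 in ECs (7.15%) and 2 in mesenchymal cells (11.8%). Doubled class limits gave 1 (6.76%) and 3 (10.9%), and thinning to 2000 UMIs gave 1 (14.4%) and 2 (12.4%). The mean of per-cell CPM (11.5%), or leaving out cycling cells (11.3%), gave 2 in mesenchymal cells. Keeping cells of several classes gave 1 (7.48%) for sorted E18.5 over labelled control. For null over control, doubled class limits gave 0 (1.15%) and SoupX-adjusted values 2 (4.68%) in mesenchymal cells. Leaving out cycling cells gave 1 (1.86%) in epithelial cells. The cause was not tested beyond how each setting was built. In ECs most members stood under the chosen minimum of 10 CPM, which limits the calls there. The ECs of E13.5 are limited by their 173 cells, with at most 16 UMIs of any member.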
